A study of Mus musculus with 21 samples.

Results

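Brown adipose tissue was compared with white vastus lateralis muscle in BATI4KO mice, in which brown adipocytes lack the transcription factor Irf4. All libraries labelled with this genotype were taken, 6 of brown fat and 5 of vastus, which make 11 of the 21 libraries of the series. Each library is total RNA of whole tissue, sequenced after depletion of ribosomal RNA and counted per gene model. Beside them stood 10 libraries of floxed littermates, 5 per tissue, which carry the floxed allele with Irf4 intact, and no library entered both comparisons. The labels give neither the age, sex or strain of the mice nor the driver of the deletion, and they do not state that each library came from its own animal. The p-values therefore cover only the spread from library to library, part of which may be technical. The brown fat libraries carry title numbers of 2 kinds, short (1, 2 and 3) and long (as in BAT_KO_5414), whereas every vastus library carries a long number. What the numbers stand for is not given in the sources used here. Libraries are called below by their titles, with BAT for brown fat, WV for vastus, KO for BATI4KO and FX for floxed. The question was which genes that mark the identity of either tissue keep their difference in level when brown fat lacks Irf4.

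Brown adipocytes burn fatty acids and glucose to make heat, by way of the uncoupling protein Ucp1 in a dense mass of mitochondria. The white part of the vastus lateralis consists mainly of fast glycolytic fibres, which draw on glycogen, phosphocreatine and anaerobic glycolysis for short bursts of force. Brown adipocytes and skeletal muscle share an embryonic origin in the dermomyotome, and Irf4 is known as a partner of the coactivator PGC-1alpha at thermogenic genes. In bulk tissue, fewer cells of a type and less RNA of that type per cell cannot be told apart. Tissue and any difference in how the tissues were handled cannot be told apart either.

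Library totals ran from 20219479 to 34915364 counts in BATI4KO brown fat and from 34343936 to 40328627 in BATI4KO vastus. Levels are given as CPM, the count scaled to a library of fixed size and for library composition, and differences as log2 of brown fat over vastus, so that a positive value means higher in brown fat. A gene was said to differ when its adjusted p in edgeR's quasi-likelihood test was under 0.05. By that rule 11946 of 16051 genes differed (74.4%), 6266 higher in brown fat (39.0%) and 5680 higher in vastus (35.4%), and the median over all genes was 0.12. The libraries of the tissues did not overlap for 57.4% of the genes. In floxed mice 68.9% of 15592 genes differed. The split depended on the scaling: with upper-quartile scaling 7710 genes were higher in brown fat and 4587 in vastus, and with library totals alone 11312 and 2164, with the median of all genes shifted by 0.27 and 1.05. Every direction below is therefore relative to the bulk of the genes. A stricter test against a 2-fold difference left 2534 genes (15.8%) higher in brown fat and 2548 (15.9%) higher in vastus. Library BAT_KO_3 stood apart before any comparison: genes of the contractile apparatus took 3.13% of its counts, against 0.168% to 0.505% in the other 5 BATI4KO brown fat libraries and 0.0838% to 0.244% in the floxed ones. Results that rest on this library are given with and without it.

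The tissue labels were checked against 6 markers. Ucp1 ran from 1016 to 3349 CPM in BATI4KO brown fat, with a median of 1805, and summed to 4 counts over the 5 vastus libraries against 449392 counts in brown fat. Pooled over libraries this is a ratio of 61989, with a 95% counting interval of 24210 to 227510. Cidea, a lipid droplet protein of brown fat, ran from 437 to 1290 CPM in brown fat and from 0.105 to 1.82 in vastus (log2 difference 9.98, SE 0.70). Adipoq, the adipocyte hormone adiponectin, ran from 471 to 707 CPM in brown fat and stood at 4.22, 1.05, 0.842, 0.224 and 0.728 CPM in vastus (log2 difference 8.61, SE 0.63). Without WV_KO_5492 the differences of Cidea and Adipoq were 10.75 and 9.63. All 6 brown fat libraries carried all 3 adipocyte markers far above every vastus library.

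The muscle markers ran the other way. Myh4, the myosin heavy chain of the fastest glycolytic fibres, stood at 42242, 111540, 80518, 68233 and 127470 CPM in the vastus libraries and between 42.0 and 1321 CPM in brown fat, with a median of 353. Ckm, the muscle creatine kinase that regenerates ATP from phosphocreatine, ran from 16968 to 23383 CPM in vastus and from 12 to 365 CPM in brown fat. Acta1, skeletal muscle actin, ran from 36420 to 52426 CPM in vastus and from 39.5 to 1280.5 CPM in brown fat. The highest brown fat value of all 3 genes was in BAT_KO_3, and no brown fat library reached the lowest vastus library.

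The stretches just upstream of the marker genes other than Cidea are shown, because the tissue labels were checked against these genes. That of Cidea was not taken. E-boxes, the CANNTG motif bound by myogenic factors such as MyoD and by other helix-loop-helix proteins, are in capitals. Each is the 250 bases before the annotated start, written 5′ to 3′ on the strand of the gene, from RefSeq on GRCm38.p6, a build other than that of the count tables.
Myh4, chr11:67237562-67237811, plus strand: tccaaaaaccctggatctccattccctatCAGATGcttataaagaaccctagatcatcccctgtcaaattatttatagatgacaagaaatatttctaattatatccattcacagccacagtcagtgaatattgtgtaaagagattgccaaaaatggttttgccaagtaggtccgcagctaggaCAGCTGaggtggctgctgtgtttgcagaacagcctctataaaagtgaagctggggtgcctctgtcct
Ckm, chr7:19410844-19411093, plus strand: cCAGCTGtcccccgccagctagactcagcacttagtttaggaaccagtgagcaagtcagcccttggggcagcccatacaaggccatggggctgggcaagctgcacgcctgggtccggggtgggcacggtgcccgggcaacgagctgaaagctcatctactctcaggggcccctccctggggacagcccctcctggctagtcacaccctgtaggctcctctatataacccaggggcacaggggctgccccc
Acta1, chr8:123894776-123895025, minus strand: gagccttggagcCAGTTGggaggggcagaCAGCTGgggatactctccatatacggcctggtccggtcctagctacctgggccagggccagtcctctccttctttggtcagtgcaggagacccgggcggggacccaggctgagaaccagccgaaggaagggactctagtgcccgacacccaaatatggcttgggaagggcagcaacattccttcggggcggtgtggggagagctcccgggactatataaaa
Ucp1, chr8:83290098-83290347, plus strand: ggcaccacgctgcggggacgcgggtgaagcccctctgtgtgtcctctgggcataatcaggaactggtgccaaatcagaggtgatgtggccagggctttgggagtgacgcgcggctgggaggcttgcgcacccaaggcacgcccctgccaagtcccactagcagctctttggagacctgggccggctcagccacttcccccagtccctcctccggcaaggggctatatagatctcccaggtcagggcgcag
Adipoq, chr16:23146286-23146535, plus strand: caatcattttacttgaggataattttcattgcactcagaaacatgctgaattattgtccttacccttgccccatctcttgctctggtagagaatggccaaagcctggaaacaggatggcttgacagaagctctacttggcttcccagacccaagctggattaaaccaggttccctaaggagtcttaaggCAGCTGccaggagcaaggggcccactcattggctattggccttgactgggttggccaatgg
The form CAGCTG, which reads the same on both strands and is itself a CANNTG match, occurred in all 3 muscle stretches and in that of Adipoq. The stretch of Ucp1 held no CANNTG. Of 32851 promoter stretches of this length, 66.2% held CANNTG and 13% held CAGCTG, so a match describes the sequence and is no evidence of binding.

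**Figure D1:**
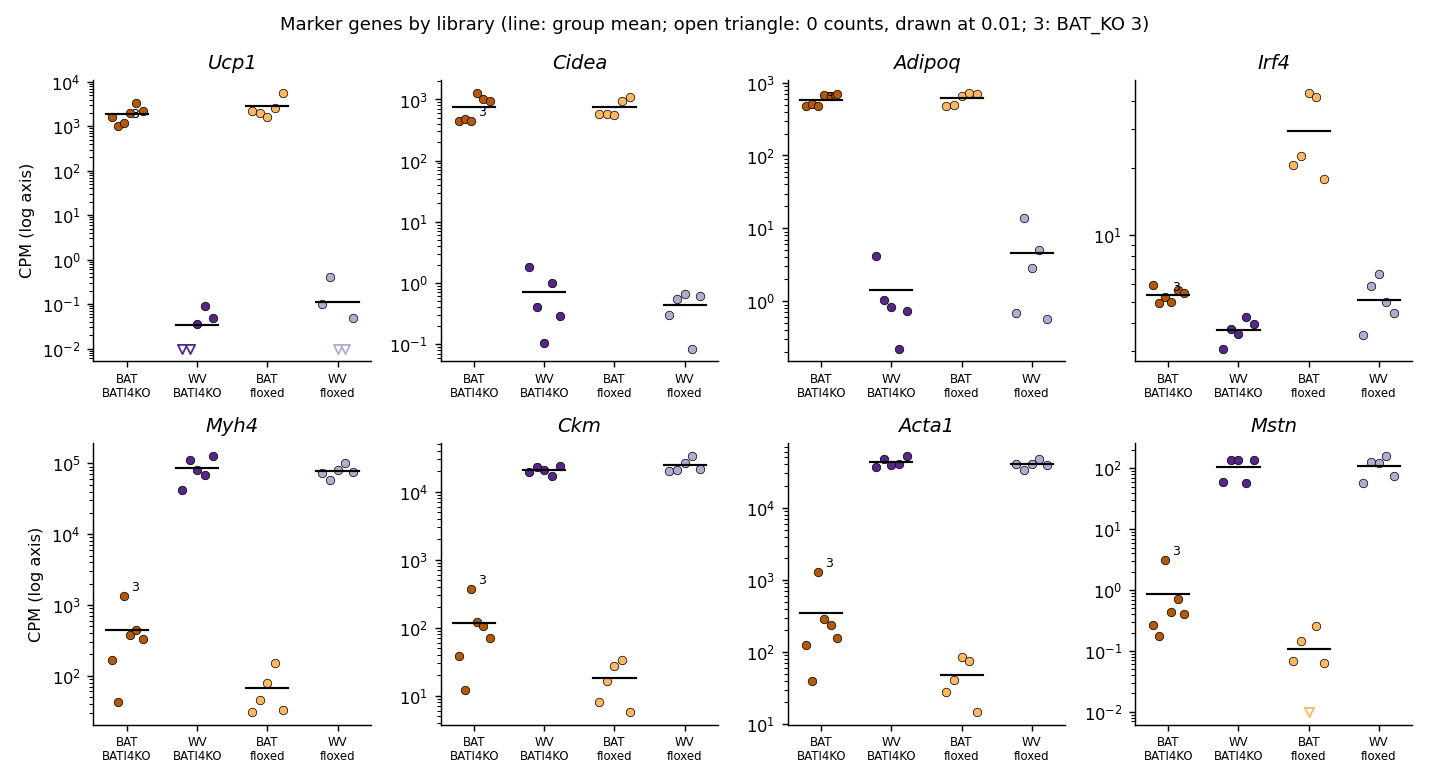
Levels of the 6 tissue markers, Irf4 and Mstn in each library, in CPM on a log axis, with brown fat (BAT) and vastus (WV) of both genotypes as separate columns of points, a line at the group mean, open triangles for libraries with no count and the label 3 for BAT_KO_3. The adipocyte and muscle markers separate the tissues by orders of magnitude in both genotypes, whereas Irf4 of BATI4KO brown fat, between 4.92 and 5.95 CPM, lies close to the vastus level.

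Irf4 itself lost most of its tissue difference. It stood at 5.95, 4.92, 5.25, 4.99, 5.64 and 5.43 CPM in BATI4KO brown fat and at 3.07, 3.75, 3.58, 4.25 and 3.98 CPM in BATI4KO vastus. In floxed mice brown fat held 20.7, 22.5, 43.5, 41.5 and 17.9 CPM and vastus 3.54, 5.87, 6.66, 4.99 and 4.42 CPM. Every floxed brown fat library lay above every BATI4KO one. The difference in BATI4KO mice was 0.50 (SE 0.13, adjusted p = 0.0030), the tissues still not overlapping, against 2.53 in floxed mice. The change of the contrast between genotypes was -1.98, and it passed the test (edgeR interaction over 21 libraries, adjusted p = 0.0136). The counts cover the whole gene model, and which part of Irf4 was removed is not given in the sources used here, so transcripts lacking the deleted part would still be counted.

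Genes of brown adipocyte identity were mostly higher in brown fat in both genotypes. Of 31 tested members of that list, 27 were higher in BATI4KO brown fat (39.0% of all genes were), 1 was lower and 3 did not pass, with a median log2 difference of 3.52 against 0.12 over all genes. In floxed mice the counts were 26 and 1, with a median of 3.51. No member passed the test of the difference between genotypes, which does not show that the contrasts were equal. Brown fat medians in BATI4KO and floxed mice were 1805 and 2234 CPM for Ucp1, 705 and 588 CPM for Cidea, and 580 and 648 CPM for Adipoq. The contrast of Ucp1, 15.67 in BATI4KO and 14.47 in floxed mice, rests on vastus levels near 0. Slc27a2, a fatty acid transporter and acyl-CoA synthetase, averaged 293 CPM in brown fat and had 2 counts in all vastus libraries together. Kcnk3, a potassium channel, differed by 10.40, the proton channel gene Otop1 by 10.03, and Clstn3, whose locus also encodes a lipid droplet protein of brown fat, by 7.67. Dio2, the deiodinase that activates thyroid hormone, differed by 6.41 (337 against 3.89 CPM). The regulators Prdm16 and Ebf2, which hold the brown adipocyte programme, differed by 3.58 and 3.52.

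Ppargc1a, the coactivator PGC-1alpha, averaged 194 CPM in brown fat and 75.6 in vastus, a log2 difference of 1.33 (SE 0.27, adjusted p = 0.00046), and its relative Ppargc1b differed by 2.09. The nuclear receptors Esrra and Esrrg did not pass, at -0.10 and 0.29 (Esrrg at 0.73 and past the threshold without WV_KO_5495), nor did the secreted factor Bmp8b at 0.62. Tbx15, listed because it is enriched in brown over white fat, was the member higher in vastus, and is described with the positional genes. Ebf2 (0.0082), Gyk (0.034) and Ppargc1b (0.034) had an unadjusted interaction p under 0.05, 3 of 31 members, where 10.6% of all genes did.

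Genes shared by all adipocytes were also mostly higher in brown fat. Of 37 tested, 34 were higher in BATI4KO brown fat (39.0% of all genes were), 2 were lower and 1 did not pass (Me1, an NADPH-producing enzyme). The median was 5.17, against 4.78 in floxed mice. Per kilobase of gene model the most abundant were Scd1, which desaturates fatty acids, and Fabp4, a fatty acid carrier. Scd1 ran from 9812 to 33233 CPM in brown fat and from 17 to 42.7 in vastus (log2 difference 9.42, SE 0.63). Fabp4 averaged 2097 CPM in brown fat and 58.1 in vastus. Fasn, the fatty acid synthase, ran from 4223 to 18088 CPM in brown fat and from 28.2 to 44.8 in vastus, a wide range among brown fat libraries that still lay far from muscle.

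The 2 genes of this list that were higher in vastus were Slc2a4 and Agt. Slc2a4, the insulin-responsive glucose transporter, averaged 291 CPM in brown fat and 631 in vastus (log2 difference -1.15). Agt, angiotensinogen, averaged 0.775 CPM in brown fat and 13 in vastus. Pck1, the enzyme of glyceroneogenesis, differed by 10.66 and Cfd, the adipocyte serine protease adipsin, by 6.81, or 11.38 and 7.67 without WV_KO_5492. Lep, the hormone leptin, differed by 5.22 in BATI4KO mice and 2.60 in floxed mice. The change between genotypes had an unadjusted p of 0.018 in the interaction test that did not survive adjustment. Lep stood at 34.2 CPM in BAT_KO_5414 and from 7.37 to 15.5 CPM in the other BATI4KO brown fat libraries. Its brown fat medians were 8.85 CPM in BATI4KO and 9.27 CPM in floxed mice, and its vastus medians 0.282 and 0.518 CPM. Without WV_KO_5492 its BATI4KO difference was 6.01. Adipocyte transcripts in the BATI4KO vastus libraries were at a median of 1.86% to 3.36% of their brown fat level over 34 genes, highest in WV_KO_5492, which also held the highest vastus values of Adipoq and Cfd (23.0 CPM).

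All 77 tested contractile genes were higher in BATI4KO vastus, where 35.4% of all genes were. The libraries of the tissues did not overlap for 69 of the 77, against 57.4% of all genes. They comprise 19 genes of the thick filament (median -6.71), 33 of the thin filament and Z-disc (median -6.14) and 25 of excitation-contraction coupling (median -6.59). The joint median was -6.52 in BATI4KO mice and -8.35 in floxed mice, where 76 of the 77 were higher in vastus and none in brown fat. Without BAT_KO_3 the joint median was -7.43 and 76 of the 77 genes passed. The most abundant per kilobase were Acta1, Myh4, the calcium pump Atp2a1, the fast troponins Tnnt3, Tnni2 and Tnnc2, and the myosin light chain Myl1.

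Differences for single contractile genes were -7.62 for Myh4 (SE 0.89), -6.98 for Acta1 (SE 0.86) and -6.77 for Atp2a1 (SE 0.91) in BATI4KO mice. In floxed mice they were -10.15, -9.67 and -9.26. Without BAT_KO_3 the BATI4KO values moved to -8.32, -8.05 and -8.14. None of the 78 contractile genes tested for a difference between genotypes passed, although 70 of them had a positive difference (51.8% of all genes did) and 47 an unadjusted p under 0.05 (10.6% of all genes did, 5.58% with a positive difference). Without BAT_KO_3 these counts were 65 and 22, and the median difference fell from 1.76 to 0.83. The part of muscle RNA carried along with brown fat in these values was not tested.

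Each brown fat library was therefore expressed against vastus. The median contractile gene stood at 0.447%, 0.187%, 3.41%, 0.844%, 0.684% and 0.569% of its BATI4KO vastus mean in libraries BAT_KO_1, BAT_KO_2, BAT_KO_3, BAT_KO_5414, BAT_KO_5492 and BAT_KO_5494. Against the floxed vastus the floxed brown fat libraries stood at 0.130% to 0.427%. BAT_KO_3 had the highest value of the 6 for 68 of the 77 genes, with a median ratio of 5.62 to the median of the other 5 libraries and a range from 0.749 to 50.2. BAT_KO_5414 was instead highest for Tnni1 (31.897%), Tnnt1 (22.004%), Myl2 (21.453%), Tnnc1 (20.037%) and Myh7 (18.121%). For these genes BAT_KO_3 stood between 1.34% and 2.32% of the vastus mean. The joint median of the contractile genes without BAT_KO_5414 is not given here. The excess of BAT_KO_3 was uneven across genes: Csrp3, a Z-disc sensor protein abundant in slow fibres and heart, reached 41.0% of the vastus mean, whereas Tnni2 reached 0.504% and Tnnc2 0.662%. Csrp3 stood at 13.4 CPM in BAT_KO_3, above its BATI4KO vastus median of 8.98 CPM, so the percentage also depends on the spread among vastus libraries.

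For 6 of the 77 contractile genes, every BATI4KO brown fat library held at least 10% of the vastus mean. These were the membrane repair gene Dysf (at least 36.9%), the tropomyosin Tpm3 (23.5%), the actin capping gene Capzb (18.2%), the calcium pump inhibitor Pln (15.7%), Asph (13.6%) and Pdlim5 (12.8%). By medians Tpm3 ran the other way, at 43.0 CPM in BATI4KO brown fat and 26.7 CPM in BATI4KO vastus. Tpm3 was near the threshold (-1.60, adjusted p = 0.0431) and was lost without any 1 of the brown fat libraries other than BAT_KO_5414 (-1.61 to -1.50) and without WV_KO_5492 or WV_KO_5495 (-1.08 and -1.02). The ratio of BAT_KO_3 to the others ran from 0.749 for Tpm3 to 1.77 for Pln, as it did for some genes outside this set, and the part of carried muscle RNA in their levels was not tested. For 58 of the 77 genes the median of the other 5 libraries lay under 1% of vastus.

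**Figure D2:**
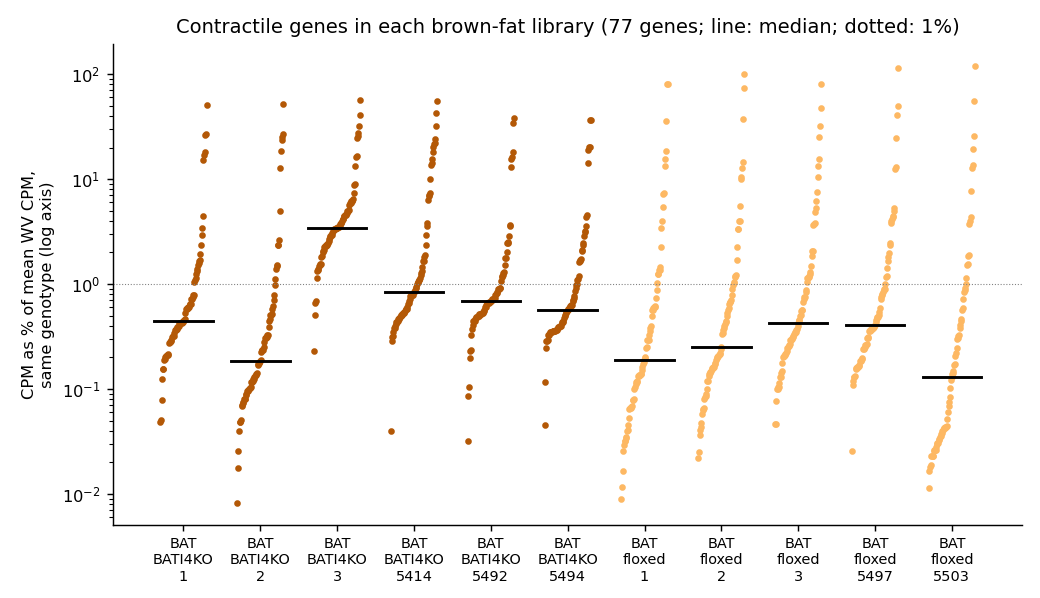
Level of the 77 contractile genes in each brown fat library as a percent of the mean of the vastus libraries of the same genotype, on a log scale, 1 point per gene with the median marked, genes with no count not drawn. BAT_KO_3 has a median of 3.41%, the other 5 lie between 0.187% and 0.844%, and the floxed libraries between 0.130% and 0.427%.

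Genes that set up muscle identity, and those of the neuromuscular junction, were higher in vastus without exception. All 27 tested passed in BATI4KO mice (35.4% of all genes were higher in vastus), with a median of -5.52. In floxed mice 26 of 27 passed, with a median of -6.29. The myogenic factors Myod1, Myf6 and Myog averaged 19.4, 63.0 and 3.75 CPM in vastus and 0.197, 0.687 and 0.0687 CPM in brown fat. Their differences of -6.79, -6.63 and -5.87 moved to -8.06, -7.62 and -6.82 without BAT_KO_3. Pax7, the marker of muscle stem cells, summed to 8 counts in brown fat and 362 in vastus. Mef2c, which drives muscle genes together with the myogenic factors, differed by -5.69, whereas its relatives Mef2a and Mef2d differed by -1.22 and -1.10, the latter turning to 0.0071 with library totals. Smyd1, a methyltransferase of the sarcomere (-7.44 without BAT_KO_3), and the acetylcholine receptor subunit Chrne differed by -6.81 and -6.30. Rapsn, which anchors that receptor, was the gene of this list nearest to a change between genotypes (difference 1.48, adjusted p = 0.244, and 1.18 without BAT_KO_3). It passed without BAT_KO_2, at 1.63.

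Mstn, myostatin, the muscle-made inhibitor of muscle growth, stood at 60.6, 138.5, 136, 57.6 and 136 CPM in the BATI4KO vastus libraries. In BATI4KO brown fat it ran from 0.179 to 3.11 CPM with a median of 0.419, the highest again in BAT_KO_3, and in floxed brown fat from 0 to 0.252 CPM. No brown fat library of either genotype approached vastus. The contrast was -7.06 (SE 0.63) in BATI4KO and -9.88 in floxed mice, and the change of 2.88 did not pass (adjusted p = 0.302); without BAT_KO_3 it was 1.68. The median contractile gene was also highest in BAT_KO_3, at 3.41% of its vastus mean. The part of carried muscle RNA in the brown fat levels of Mstn was not tested.

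Of the receptors and signal carriers that myostatin uses, most were higher in vastus. The type II receptors Acvr2b and Acvr2a differed by -2.75 and -1.84, the type I receptors Acvr1b and Tgfbr1 by -3.67 and -1.15, and Smad3 by -2.36. Gdf11, the closest relative of myostatin, differed by -3.52. Smad2 was slightly higher in brown fat (0.35), as was the antagonist Fst (0.68), whose call was lost without BAT_KO_1 or BAT_KO_3 (0.65 and 0.51) or without WV_KO_5493, WV_KO_5495 or WV_KO_5496 (0.61 to 0.65). Among the Irf family, Irf1, Irf7, Irf9 and Irf3 were higher in brown fat by 1.46, 1.49, 0.95 and 0.91, and Irf5 and Irf8 were higher in vastus, at -1.78 and -0.97, although Irf8 stood at 0.069 with library totals. The list as a whole held 7 genes higher in brown fat and 10 in vastus of 22 tested (39.0% and 35.4% of all genes), the same counts as in floxed mice, where 21 were tested, whereas library totals gave 11 and 7. Irf4 was its sole member to pass the test between genotypes.

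The enzymes that feed a fast fibre were higher in vastus in 26 of 27 cases (35.4% of all genes were). Their median was -4.81 (floxed mice -5.11). Ckm averaged 20645 CPM in vastus and differed by -7.48 (SE 0.80), or -8.25 without BAT_KO_3. Aldoa, the glycolytic aldolase, averaged 15313 CPM in vastus but also 1480 CPM in brown fat, a smaller difference of -3.40. Myoglobin (Mb), which stores oxygen, differed by -6.33, and Pygm, which breaks down glycogen, by -6.99, or by -7.13 and -8.04 without BAT_KO_3. The exception was Gbe1, the glycogen branching enzyme, with 256 CPM in brown fat and 90.2 in vastus (1.48).

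Genes of fatty acid oxidation were mostly higher in brown fat. Of its 25 genes, 24 were higher in brown fat in BATI4KO mice, where 39.0% of all genes were, and 24 in floxed mice. The medians were 1.81 in BATI4KO and 1.95 in floxed mice. The thiolase Acaa2 averaged 1426 CPM in brown fat and 179 in vastus (log2 difference 2.97, SE 0.32), and Hadhb, a subunit of the trifunctional protein, 2732 and 600 CPM. Acadm and Acadl, which begin the oxidation of medium and long chains, differed by 1.95 and 2.31. The gene that did not pass was Cpt1a, the liver form of the carnitine gate, at 0.0017. The difference between genotypes was negative for 22 of the 25 (51.8% of all genes were positive), with a median of -0.23, and none had an unadjusted p under 0.05. With library totals 10 of the 25 were positive and the median was -0.03.

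Among 22 genes of the TCA cycle and its pyruvate entry, 11 were higher in brown fat (39.0% of all genes were) and none in vastus, with a median of 0.49 and no gene past 2-fold. Cs, the citrate synthase, averaged 1458.5 CPM in brown fat and 872 in vastus. The difference between genotypes was negative for all 22, with a median of -0.21 and none at an unadjusted p under 0.05, but with library totals 13 of them were positive. With the same scaling all 22 were higher in brown fat. The counts in brown fat and vastus were 14 and 0 without BAT_KO_3, 9 and 1 without BAT_KO_5414, 17 and 0 with the long-number brown fat libraries alone and 5 and 2 with the short-number ones.

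Nuclear genes of the respiratory chain went both ways. Of 59 tested, 15 were higher in brown fat, 10 in vastus and 34 did not pass, fewer calls on either side than over all genes (39.0% and 35.4%). The balance was not stable: it was 12 and 14 without BAT_KO_5414, 7 and 18 with the short-number brown fat libraries alone, 21 and 6 with upper-quartile scaling and 49 and 2 with library totals. ATP synthase genes are given apart, a choice made after their values were seen. Of 14 tested, 6 were higher in vastus, 7 did not pass and Atp5d was higher in brown fat (0.44). Those higher in vastus were Atp5g1, which encodes the membrane ring subunit, at -5.85, Atp5g3, another copy of that subunit, at -2.09, Atp5c1 at -1.27, Atp5j at -1.19, Atp5f1 at -1.03 and Atp5e at -0.46, which turned to 0.60 with library totals. Atp5g1 averaged 5.85 CPM in brown fat and 330 CPM in vastus, the widest gap of the list. Of the catalytic subunits, Atp5b and Atp5a1 did not pass, at 0.16 and -0.29.

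Genes for creatine handling and lipid building went both ways. Slc6a8, the creatine importer, and Gamt and Gatm, which make creatine, were higher in vastus, at -2.28, -1.85 and -0.96 (Gatm at 0.071 with library totals). The creatine kinase Ckb was higher in brown fat by 2.47. The citrate exporter Slc25a1 differed by 6.47 and Angptl4, the secreted inhibitor of lipoprotein lipase, by 6.11. In all, 11 of 16 were higher in brown fat and 3 in vastus, in either genotype. Over all genes of BATI4KO mice the shares were 39.0% and 35.4%.

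In several enzyme families a different gene led in each tissue. The share of each member in the summed level of its family was computed per kilobase of gene model. In subunit 6a of cytochrome oxidase, the muscle form Cox6a2 made up 95.7% ± 0.63 (SD, n = 5) of the family in vastus and 0.534% in brown fat, where Cox6a1 took 99.5%. Cox6a2 ran from 0.154 to 5.92 CPM in brown fat, the highest in BAT_KO_3, and from 125 to 191 in vastus. Cox6a1 ran from 210 to 360 CPM in brown fat and from 3.71 to 7.56 in vastus (log2 difference 5.55). The lactate transporters showed a like exchange: the exporter Slc16a3 took 80.6% in vastus and 0.806% in brown fat, where Slc16a1 took 99.2%.

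The muscle phosphofructokinase Pfkm took 99.6% of its family in vastus and 22.6% in brown fat, where the liver form Pfkl took 72.1%. Pygm took 99.9% of glycogen phosphorylase in vastus and 11.9% in brown fat (2.45% to 43.2%, the highest in BAT_KO_3), with the liver form Pygl at 74.4%. Pgam2 took 99.5% of phosphoglycerate mutase in vastus and Pgam1 94.5% in brown fat. Of the mitochondrial carriers of adenine nucleotides, Slc25a4 took 98.4% in vastus and Slc25a5 65.4% in brown fat. Among uncoupling proteins, Ucp1 took 95.4% in brown fat and Ucp3 97.0% in vastus, although the absolute level of Ucp3 was closer between the tissues.

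Other families were led by one gene in both tissues. Cpt1b, the muscle form of the carnitine gate, took 98.4% of its family in brown fat and 97.0% in vastus. Slc2a4 took 96.9% and 97.7% of the glucose transporters, Hk2 96.4% and 99.0% of the hexokinases, and Aldoa led the aldolases in both. The muscle enolase Eno3 took 95.0% of its family in brown fat and 99.99% in vastus. Ckm took 69.0% of the creatine kinases in brown fat (55.9% to 82.0%) and 91.7% in vastus, with Ckb at 23.2% in brown fat. The part of carried muscle RNA in the brown fat levels of Ckm and Eno3 was not tested. Acaca and Acacb, the acetyl-CoA carboxylases for synthesis and for the control of oxidation, held 48.4% and 51.6% in brown fat, while Acacb held 95.0% in vastus. In floxed brown fat Pfkl took 77.9% of its family, Slc25a5 69.6% and Cox6a1 99.9%. Ckb took 58.1% of its family there and Ckm 38.1%, and Eno3 took 90.8% of the enolases.

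**Figure D3:**
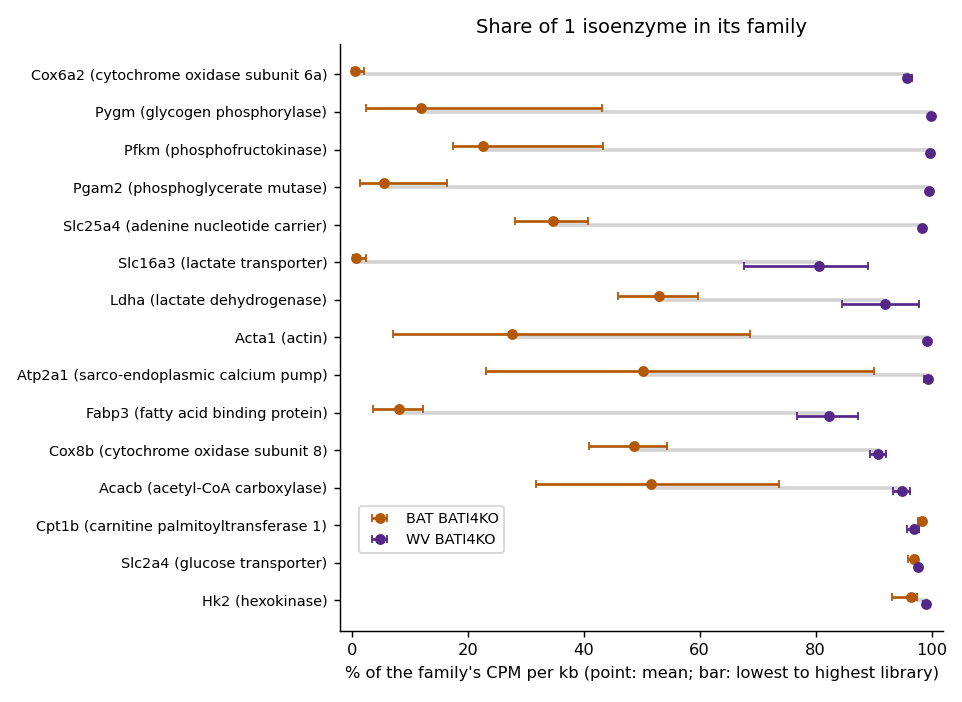
Share of 1 gene per row in the summed CPM per kilobase of its enzyme family, in percent, for BATI4KO brown fat (orange) and vastus (purple); points are means and bars run from the lowest to the highest library. Cox6a2, Pygm, Pfkm, Pgam2 and Slc16a3 lead their families in vastus and not in brown fat, whereas Cpt1b, Slc2a4 and Hk2 lead in both tissues.

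Some family members differed among vastus libraries more than between tissues. Atp2a2, the calcium pump of slow fibres, stood at 563, 82.2, 55.3, 799 and 81.4 CPM in vastus libraries WV_KO_5492, WV_KO_5493, WV_KO_5494, WV_KO_5495 and WV_KO_5496, and between 268 and 335 CPM in brown fat. WV_KO_5492 and WV_KO_5495 lay above all brown fat libraries and the other 3 below them. The difference was -0.15 (adjusted p = 0.827) in BATI4KO mice and 2.03 in floxed mice, where vastus held 47.2, 58.6, 91.0, 52.7 and 212 CPM, and the change of -2.15 did not pass (adjusted p = 0.335). Ldhb, the oxidative form of lactate dehydrogenase, was likewise highest in those vastus libraries, at 356 and 370 CPM against 60.1 to 86.4, and did not pass (0.92, adjusted p = 0.0674). Leaving out WV_KO_5492 or WV_KO_5495 gave 1.29 and 1.32, and each then passed. Fabp3, the heart and muscle fatty acid carrier, was also highest in those libraries, with 558 and 455 CPM against 162 to 205.

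Genes that record position along the body differed between the tissues in both directions. Among Hox genes of groups 1 to 7, expressed toward the head end, 12 of 17 tested were higher in brown fat (39.0% of all genes were). None was higher in vastus, and 5 did not pass. Hoxa5 stood between 7.89 and 13.3 CPM in brown fat, with a mean of 10.1, and at 1.47, 1.65, 1.93, 1.16 and 1.85 CPM in vastus (log2 difference 2.61, SE 0.18). Hoxb4, Hoxb3, Hoxd3 and Hoxb2 differed by 3.36, 3.14, 2.37 and 2.07, and Hoxa2, Hoxc5, Hoxa4 and Hoxa3 by 1.77, 1.65, 1.38 and 0.91. Hoxa7, Hoxc6 and Hoxc4 did not pass, at -0.32, 0.06 and 0.30, although Hoxa7 passed without WV_KO_5496 (-0.40).

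Hox genes of groups 8 to 13, expressed toward the tail end and in the hind limb, ran the other way. Of 8 tested, 6 were higher in vastus (35.4% of all genes were) and none in brown fat, against 5 and 1 with library totals. Hoxc10 stood at 32.6, 45.6, 31.2, 42.5 and 50.7 CPM in vastus and summed to 2 counts in 6 brown fat libraries against 5034, a pooled ratio of 4562 (95% counting interval 1262 to 37678). Hoxa10 and Hoxc9 had 2 and 1 counts in brown fat against 1731 and 712. Hoxc11 had no count in brown fat and 113 in vastus, which makes it at least 11-fold higher there, taking 3 counts per library as the floor. Hoxa9, with 44 counts in brown fat, differed by -4.80. The vastus is a thigh muscle, and the labels do not say which brown fat depot was taken.

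Hoxb8, too low to be tested, had 45 counts in brown fat and 5 in vastus, a pooled ratio of 4.97 (95% counting interval 1.98 to 16.03). Hoxc8 averaged 1.43 CPM in brown fat and 2.71 in vastus (-0.96) in BATI4KO mice, a direction that turned with library totals (0.083), and was at -0.10 in floxed mice; the change did not pass (unadjusted p = 0.068). Hoxd8 and Hoxd9 did not pass, at -0.30 and -0.66. No Hox gene passed the test of the difference between genotypes.

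Other positional transcription factors were split, with 5 of 17 higher in brown fat and 10 in vastus, or 7 and 8 with library totals. Over all genes the shares were 39.0% and 35.4%. Tbx15, which patterns the trunk and limb and is used by fast fibres, stood at 387, 601, 499, 476 and 623 CPM in vastus and between 3.02 and 19.6 in brown fat, with the highest value in BAT_KO_3. Its contrast was -6.29 (SE 0.50), or -6.95 without that library, against -7.06 in floxed mice. Tbx1 and Lbx1, which act in muscle precursors, differed by -7.06 and -6.57, or -7.71 and -7.28 without BAT_KO_3. Pitx3, Tbx4, En1, Pax3 and Shox2 differed by -3.46, -3.33, -3.27, -1.73 and -1.11, and Irx3 by -0.71, which turned to 0.32 with library totals.

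On the brown fat side were Tbx5 (2.2), a forelimb and heart factor, Zic1 (1.48), a dorsal factor used as a marker of classical brown fat, and Tbx18 (0.96). Lhx8, another such marker, averaged 1.59 CPM in brown fat with 362 counts and had none in vastus, so that it was at least 13.2-fold higher. Meox2 and Meox1, factors of the somite, did not pass, at 0.30 and -0.10, with Meox2 at 0.58 and past the threshold without WV_KO_5492.

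**Figure D4:**
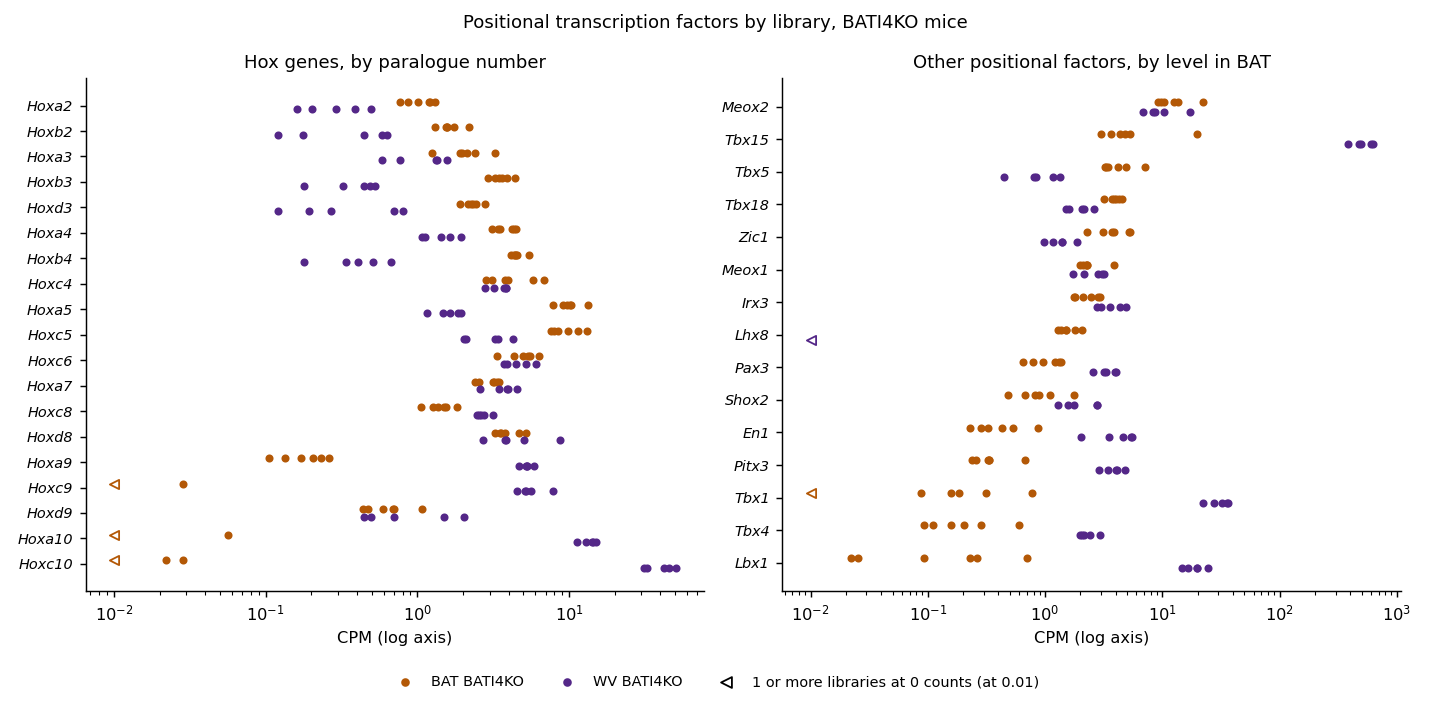
Levels of the positional transcription factors reported here with at least 1 CPM in a tissue of BATI4KO mice, in CPM on a log axis, 1 point per library, brown fat in orange and vastus in purple, with open triangles where 1 or more libraries had no count. Hox genes (left, ordered by paralogue number) are mostly higher in brown fat at the top, and Hoxa9, Hoxc9, Hoxa10 and Hoxc10 at the bottom are higher in vastus, where Hoxc10 reaches 31.2 to 50.7 CPM in vastus, and among the other factors (right) Tbx1, Lbx1 and Tbx15 lie far to the vastus side and Lhx8 has no count in vastus.

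Markers of other cell types were read from fixed lists, beside 39.0% of all genes higher in brown fat and 35.4% in vastus. Endothelial genes were higher in brown fat in 13 of 15 cases (median 1.05), with Pecam1 at 77.5 against 49.8 CPM and Cdh5 at 127 against 75 CPM. Vwf was the member higher in vastus (-0.87), which turned to 0.17 with library totals. Of 15 genes of fibroblasts and preadipocytes, 11 were higher in vastus (median -0.85), among them Pdgfra and Dcn, but with library totals 5 were higher in brown fat and 1 in vastus. Smooth muscle and pericyte genes were mixed (5 and 2 of 12), and their defining genes Myh11 and Rgs5 did not pass.

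Immune genes were low. Lymphocyte genes were higher in brown fat in 11 of 12 cases (median 2.62), with a summed level of 8.96 to 12.6 CPM in 5 of the brown fat libraries, 36.2 CPM in BAT_KO_5414 and 2.57 to 4.80 CPM in vastus. Without BAT_KO_5414 the median was 1.61 and 10 of 11 passed; floxed mice gave 4 of 8 and a median of 0.63. Of 15 macrophage genes, 6 were higher in brown fat, near the share over all genes (39.0%), and 3 in vastus (floxed mice 2 and 1), and with library totals 14 and none. The defining macrophage genes Csf1r and C1qa did not pass. Schwann cell genes were split, with 5 of 10 higher in brown fat and 3 in vastus. Sox10 was higher in brown fat (1.63). All 5 erythroid genes were higher in brown fat (median 2.74), Alas2 by 1.57, with sums of 32.8 to 169 CPM in brown fat and 11.7 to 22.5 in vastus.

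Set against the floxed mice, most calls were shared. Of the 15502 genes tested in both genotypes, 5650 were higher in floxed brown fat, where 36.4% of the genes tested there were. Of these, 5095 (90.2%) were also higher in BATI4KO brown fat, 553 (9.79%) did not pass and 2 had turned. Of 5058 higher in floxed vastus, 4791 (94.7%) were also higher in BATI4KO vastus, 267 (5.28%) did not pass and none had turned. Seen from the BATI4KO side, 85.4% of brown fat calls and 85.3% of vastus calls were shared. A further 870 and 824 genes passed in BATI4KO mice alone. A pass in one genotype and not in the other does not show a difference, which the interaction tested directly.

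**Figure D5:**
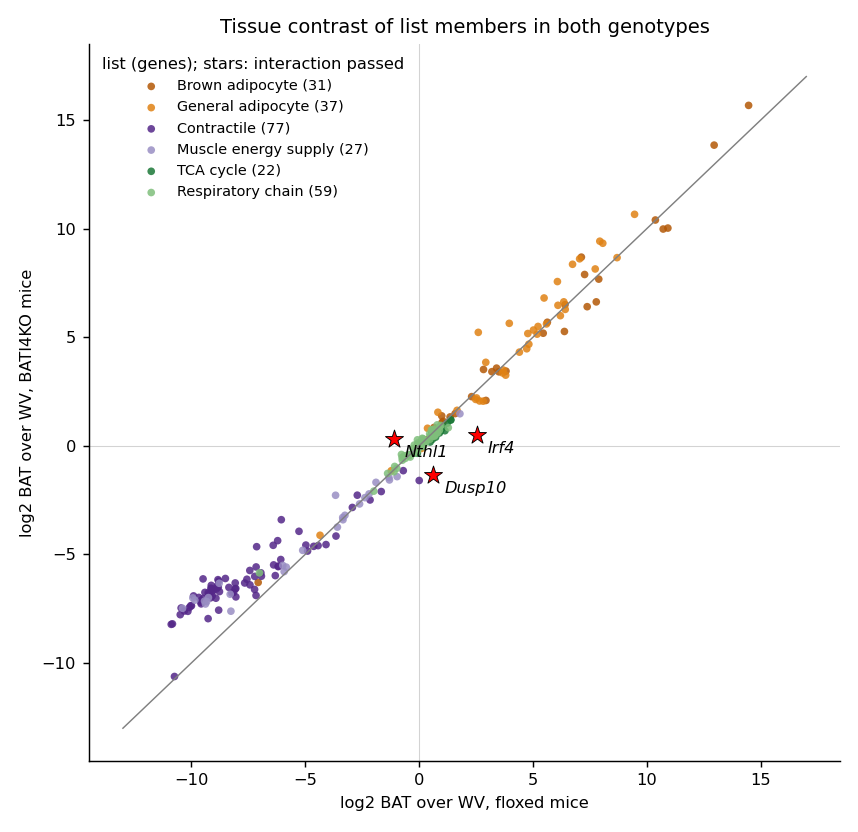
Log2 difference between brown fat and vastus for the members of 6 gene lists, floxed mice on the horizontal and BATI4KO mice on the vertical axis, with a line of equal values and stars for the 3 genes that passed the interaction test. Most contractile genes (purple, lower left) lie above the line, Irf4 and Dusp10 lie below it and Nthl1 above it.

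Of 16632 genes, 3 passed the interaction test (0.0180%), while 1766 (10.6%) had an unadjusted p under 0.05. Irf4 was 1 of them. Dusp10, a phosphatase that switches off the stress kinases p38 and JNK, changed sides. It ran from 25.1 to 54.3 CPM in BATI4KO brown fat, with a median of 35.0, and stood at 85.2, 120, 103, 58.4 and 84.5 CPM in BATI4KO vastus (log2 difference -1.33). In floxed mice brown fat held 32.9, 52.6, 49.0, 54.4 and 53.5 CPM and vastus 40.7, 34.3, 20.7, 24.1 and 39.6 CPM (0.62). All BATI4KO vastus libraries lay above all floxed ones, while the brown fat ranges overlapped. The change was -1.93 (SE 0.30, adjusted p = 0.0136).

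Nthl1, a DNA glycosylase that removes oxidised bases, changed the other way, at low levels. It ran from 1.85 to 2.24 CPM in BATI4KO brown fat and from 1.31 to 1.96 in vastus, where the contrast of 0.32 did not pass (adjusted p = 0.0887, and 0.0380 at a contrast of 0.43 without WV_KO_5494). In floxed mice it ran from 0.788 to 1.29 CPM in brown fat and from 1.99 to 2.52 in vastus (-1.12). The change was 1.51 (adjusted p = 0.0136). Reads of transcripts that overlap it cannot be told apart, because the use of strand in counting is not given.

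The 3 calls did not hold in every fit. With library totals Irf4 and Dusp10 no longer passed (adjusted p = 0.101 and 0.0737), with limma voom Irf4 did not (0.190), and with the short-number brown fat libraries alone none of the 3 did (0.289, 0.441 and 0.557 for Irf4, Dusp10 and Nthl1). Dusp10 was also lost with the long-number libraries alone (0.0604). All 3 passed whichever single library was left out. The number of genes that passed moved more: it was 30 without BAT_KO_2, 5 without BAT_KO_1, 54 with DESeq2, 20 with the long-number brown fat libraries alone and 0 with the short-number ones, where 854 genes had an unadjusted p under 0.05.

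Genes just short of the threshold included Clock, the core circadian activator, at 0.79 in floxed mice and -0.12 in BATI4KO mice (change -0.86, adjusted p = 0.0834). The phosphatase Ptpn4 (-0.86) and Cdc27 (-0.58), a subunit of the anaphase-promoting complex, followed in that direction, and the alcohol dehydrogenase Adh1 (1.25) and Peli3 (1.17) in the other, each at an adjusted p of 0.192. Adh1 averaged 63.8 CPM in BATI4KO brown fat and 12.2 in vastus. In floxed vastus it stood at 27.3, 34.4, 41.2, 21.7 and 31.5 CPM, above all BATI4KO vastus libraries, and the brown fat ranges overlapped. Clock passed without BAT_KO_1 or BAT_KO_2 (-0.91 and -0.86), Peli3 and Ptpn4 without BAT_KO_2 (1.28 and -0.88) and Adh1 without WV_KO_5495 (1.43). With all libraries these genes do not pass, and their values are given as a description.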

How the data were processed

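RNA of brown fat and white vastus lateralis was measured by sequencing in 21 libraries. The authors deposited raw read counts for 28541 gene models in 2 tables, 1 per tissue, 1 column per library. The submitters' processing notes name the build mm9, the aligner TopHat2 2.0.14, the counter featureCounts 1.4.6, the tools SAMtools 0.1.19, Picard 2.2.4 and bcl2fastq 2.17.1.14, and edgeR. Whether counting used strand is not given in the sources used here. The tables were joined by gene model. A symbol shared by several models (593 symbols, 1443 models) is uncertain, as are genes that share reads with close copies, such as the actins.

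For each contrast the quasi-likelihood F test of edgeR 4.0.16, run in R 4.3.3, was applied to TMM-scaled counts, after edgeR's default filter on low counts, with Benjamini-Hochberg adjustment over all genes tested and a threshold of 0.05. The contrast in BATI4KO mice was fitted on 11 libraries and that in floxed mice on 10. The difference between genotypes was an interaction over all 21, with the kind of title number as a covariate. CPM is computed from the count and the TMM-scaled library size, with TMM over 21 libraries. Alternatives used other scalings and filters, DESeq2 1.42.0, limma 3.58.1 (voom), glmTreat, 1 kind of title number alone, a replicate block and each library left out. The scripts were tested on simulated data. No pair of libraries agreed within sampling noise.

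The comparison, gene lists and families were chosen with earlier results of these data known. Irf4, Mstn and the 6 markers were always named. Per direction the 8 most abundant genes per kilobase were eligible, with an absolute log2 contrast of at least 3 and tissues not overlapping. Per list up to 4 passing members were eligible by the same measure (2 per direction), all positional genes with at least 1 CPM in a tissue, all tested isoenzymes, and for the interaction the 5 smallest p per direction at 1 CPM or more. Other list members named in the text were chosen after their values were seen. Some genes the rule allows are not reported here.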

Additional observations from a re-analysis of the deposited data

Results flagged for a closer look

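Within the 6 brown fat or the 5 vastus libraries of BATI4KO mice, 57 of 486 tested sets of values (11.7%) held a library far from the others by Dixon's test at the 95% level, where chance gives about 1 in 20. The sets share libraries and genes, so they are not independent. Values are in CPM unless another unit is given, and each is the highest of its group unless stated.

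BAT_KO_3 gave 37 of these. Contractile genes stood out there, with Acta1 at 1280.5 CPM, Atp2a1 at 1545, Myh4 at 1321, Myl1 at 261, Tnnt3 at 185, Nrap at 109, Pvalb at 118 and Csrp3 at 13.4. Summed over each list, the thick filament genes reached 13922 CPM, the thin filament and Z-disc genes 4219, the coupling genes 3014.5 and all contractile genes 21156, and the median contractile gene stood at 3.41% of its vastus level. Muscle forms of energy enzymes stood out in the same library, with Ckm at 365 CPM, Ckmt2 at 53.3, Cox6a2 at 5.92, Eno3 at 121, Pfkm at 164, Pgam2 at 24.6, Pygm at 258 and Slc16a3 at 3.71. So did genes of muscle identity and the neuromuscular junction, which summed to 387 CPM, with Mstn at 3.11 CPM, Myf6 at 2.54, Myod1 at 0.835, Myog at 0.267, Pax7 at 0.134, Mef2c at 51.7, Smyd1 at 18.5, Rapsn at 1.136 and Chrne at 0.501. Of positional factors, Tbx15 at 19.6 CPM, Lbx1 at 0.702 and Pitx3 at 0.668 were highest there. The neuronal glucose transporter Slc2a3 (9.76 CPM), the ATP synthase gene Atp5g1 (13.8 CPM) and Hoxb4 (5.48 CPM) complete the set.

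BAT_KO_5414 held the highest Actb (855 CPM), Angptl4 (337 CPM), Lep (34.2 CPM), Atp2a3 (16.3 CPM), Meox1 (3.89 CPM) and Meox2 (22.4 CPM). Its lymphocyte genes summed to 36.2 CPM, with Cd3d at 2.09 CPM and Cd79a at 2.68 CPM. BAT_KO_5494 was highest for Hoxa10 (0.0569 CPM) and Hoxc9 (0.0284 CPM), levels of 2 counts and 1 count. BAT_KO_2 stood apart for Cox7a2 (214 CPM).

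Among vastus libraries, WV_KO_5492 was highest for Adipoq (4.22 CPM), Cfd (23.0 CPM), the Schwann cell and adipocyte gene S100b (1.79 CPM) and the summed Hox genes of groups 1 to 7 (26.2 CPM). It was lowest for Ncam1 (9.66 CPM). WV_KO_5495 was highest for Ppargc1a (116 CPM) and Prdm16 (5.73 CPM), and WV_KO_5494 stood apart for Cd79a (0.175 CPM).

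By the interaction test over 21 libraries (edgeR, adjusted p = 0.0136 for each), the tissue contrast differed between genotypes for Irf4 (-1.98), Dusp10 (-1.93) and Nthl1 (1.51).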

How the results depend on the processing

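Scaling set the balance of the calls. With library totals alone 11312 genes were higher in BATI4KO brown fat and 2164 in vastus (83.9% of calls on the brown fat side against 52.5%), and 9458 and 2451 in floxed mice (79.4% against 52.8%). Upper-quartile scaling gave 62.7% and 59.8%. Against a 2-fold difference (glmTreat) the counts were 2534 and 2548 in BATI4KO and 2205 and 2214 in floxed mice. With library totals these log2 contrasts in BATI4KO mice turned from vastus to brown fat: Atp5a1 0.75, Atp5e 0.60, Cd163 0.46, Cdc27 0.97, Clock 0.93, Cnp 0.58, Col3a1 0.19, Eef2 0.31, Esrra 0.93, Gatm 0.071, Hk2 0.026, Hoxa7 0.70, Hoxc8 0.083, Hoxd8 0.80, Irf8 0.069, Irx3 0.32, Me1 0.97, Mef2d 0.0071, Meox1 0.91, Mrc1 0.54, Myh11 0.77, Rgs5 0.94, Slc2a1 0.49, Slc2a3 0.0081, Ucp3 0.086 and Vwf 0.17. In floxed mice Atp5a1 turned to 0.56, Atp5e 0.15, Cnp 0.080, Cpt1a 0.58, Dysf 0.10, Eef2 0.17, Esrra 0.61, Mef2d 0.20, Slc2a1 0.30, Slc2a3 0.011 and Vwf 0.029. The share of floxed calls kept in BATI4KO mice was 92.3%, and 88.6% to 95.3% across the alternatives. Leaving out 1 library gave 6001 to 6318 and 5445 to 5631 calls in BATI4KO mice, 5365 to 5752 and 4899 to 5335 in floxed mice, and 3 to 30 for the interaction (30 without BAT_KO_2 and 5 without BAT_KO_1). DESeq2 gave 54 interaction calls, the long-number brown fat libraries 20 and the short-number ones 0. The cause of these changes was not tested.

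For title numbers found in both tissues, deviations from the group means correlated at 0.095 and 0.040 in BATI4KO mice and at 0.076 and 0.046 in floxed mice. Pairs with unlike numbers ran from -0.274 to 0.241 in BATI4KO mice and from -0.164 to 0.112 in floxed mice. Because these ranges take in the values of shared numbers, they cannot decide whether a shared number pairs the libraries. A replicate block on those numbers over 4 libraries gave 4532 and 4812 calls in BATI4KO and 4463 and 4595 in floxed mice, where Cox7a1 (-0.72), Fst (-0.036) and Hoxd8 (-0.81) turned. A block by duplicateCorrelation gave 6180 and 5726 in BATI4KO mice and 3 for the interaction, with Irf4 at an adjusted p of 0.117. Counts are few for Hox and lymphocyte genes, which limits their precision.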
